A study of Mus musculus with 2 samples.

Results

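The growth factor receptors that sensory neurons use to read neurotrophins and ligands of the GDNF (glial cell line-derived neurotrophic factor) family were followed through the cells of the mouse dorsal root ganglion at postnatal day 4. The set held 9 of the 32285 genes in the deposited feature lists, chosen by symbol: Ntrk2, Ntrk3, Ngfr, Sort1, Ret, Gfra1, Gfra2 and Gfra3, and Gdnf as the ligand. All 9 were found in both libraries. The rule itself used no measured value, although the members were chosen with earlier results of these data known.

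Neurotrophins are secreted survival and growth factors that bind receptor tyrosine kinases of the Trk family and the shared receptor p75, and each kind of sensory neuron carries its own receptor. Ligands of the GDNF family bind a GFRα co-receptor held to the membrane by a lipid anchor, and the pair then engages the RET tyrosine kinase. In rodent ganglia many non-peptidergic nociceptors come to rely on RET signalling around and after birth, whereas touch neurons and proprioceptors keep TrkB or TrkC.

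The ganglia came from all axial levels, and each genotype had 1 single-cell 3′ library, so no test between genotypes was possible. The cKO library came from mice carrying Dhh CRE+ and Ptges3 flox/flox, and the flox library from mice carrying Ptges3 flox/flox without the Cre. Dhh-Cre is driven by desert hedgehog sequence and acts in the Schwann cell lineage, so the floxed gene is targeted in glia and not in neurons, and both groups carry the floxed alleles. Ptges3 encodes p23, a cochaperone of the chaperone HSP90. The sources used here do not give the number of animals pooled in a library.

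After filtering, 7866 cKO cells and 8107 flox cells remained, with a median of 4319.5 UMIs (unique molecular identifiers, tags that mark single captured RNA molecules) per cKO cell and 6886 per flox cell. Neuron-like cells numbered 2778 in cKO and 1513 in flox, and their median depth was 9650 UMIs in cKO against 47575 in flox. No subtype name could be given to 53.1% of neuron-like cells in cKO, with a median of 4295.5 UMIs, and to 21.2% in flox, with a median of 7474 UMIs. The flox library alone held astrocyte-like, oligodendrocyte-like and oligodendrocyte precursor-like cells, 168, 324 and 268 in number, against 0 in cKO. The libraries shared 23 cell barcodes, 16 of them among kept cells. Ptges3 was at 129.5 CPM (UMI counts scaled so that every class has the same total, in the standard unit of RNA sequencing) in all glia of the cKO library and 254.3 CPM in those of the flox library, and 388 CPM in cKO neurons against 276 CPM in flox neurons. Cell classes are called "-like" because they were named from marker genes. Every level below is the CPM of the UMIs summed over a class, so fewer positive cells and less RNA per cell cannot be told apart in it. Every interval is at 95% and covers counting error only, and a member counts as higher or lower when the log2 ratio, cKO over flox, is 0.5 or more in size with at least 50 UMIs over both libraries.

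Promoter sequence is shown for Ntrk2 and Ngfr, which among the named neuron subtypes were both highest in the myelinated touch neurons and met there in the same cells. Both stretches are the 250 bases before the annotated start, from RefSeq on GRCm38.p6, read 5′ to 3′ on the gene's strand: chr13:58806319-58806568 on the plus strand for Ntrk2 and chr11:95587699-95587948 on the minus strand for Ngfr. Capitals mark TGTGGT, the core recognised by RUNX factors, and GGGCGG, the GC box, on either strand, and the 2 motifs did not overlap.
Ntrk2 promoter: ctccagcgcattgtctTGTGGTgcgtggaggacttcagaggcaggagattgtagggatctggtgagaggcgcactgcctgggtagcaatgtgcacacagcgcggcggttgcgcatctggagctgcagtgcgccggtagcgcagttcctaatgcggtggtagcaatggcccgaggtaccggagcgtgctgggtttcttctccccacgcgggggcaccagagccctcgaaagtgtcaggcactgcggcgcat
Ngfr promoter: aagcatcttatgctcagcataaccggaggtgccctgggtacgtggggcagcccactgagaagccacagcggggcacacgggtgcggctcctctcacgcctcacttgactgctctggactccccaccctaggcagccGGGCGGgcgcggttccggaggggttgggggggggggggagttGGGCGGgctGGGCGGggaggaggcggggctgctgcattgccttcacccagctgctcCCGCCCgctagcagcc
The Ntrk2 stretch held TGTGGT 1 time and GGGCGG 0 times, and the Ngfr stretch held GGGCGG 4 times and TGTGGT 0 times. Of the 32851 promoters of this length in the table, 14.05% held TGTGGT and 32.74% held GGGCGG. GC content was 62.8% for Ntrk2 and 70.4% for Ngfr, against a median of 52.4% over all promoters. The matches describe letters only.

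Most receptor RNA lay in neurons in both libraries. Neuron-like cells held 94.8% of all Ret UMIs in cKO and 98.0% in flox, and 89.9% of Gfra3 UMIs in cKO and 94.9% in flox. Ntrk2 was spread more widely, with 59.2% of its UMIs in neurons in cKO and 42.7% in flox, and 19.2% in fibroblast-like cells in cKO against 33.4% in flox. Sort1 was also shared between tissues, with 56.3% of its UMIs in neurons in cKO and 46.3% in flox and 32.2% of its UMIs in glia in cKO and 36.5% in flox.

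**Figure D1:**
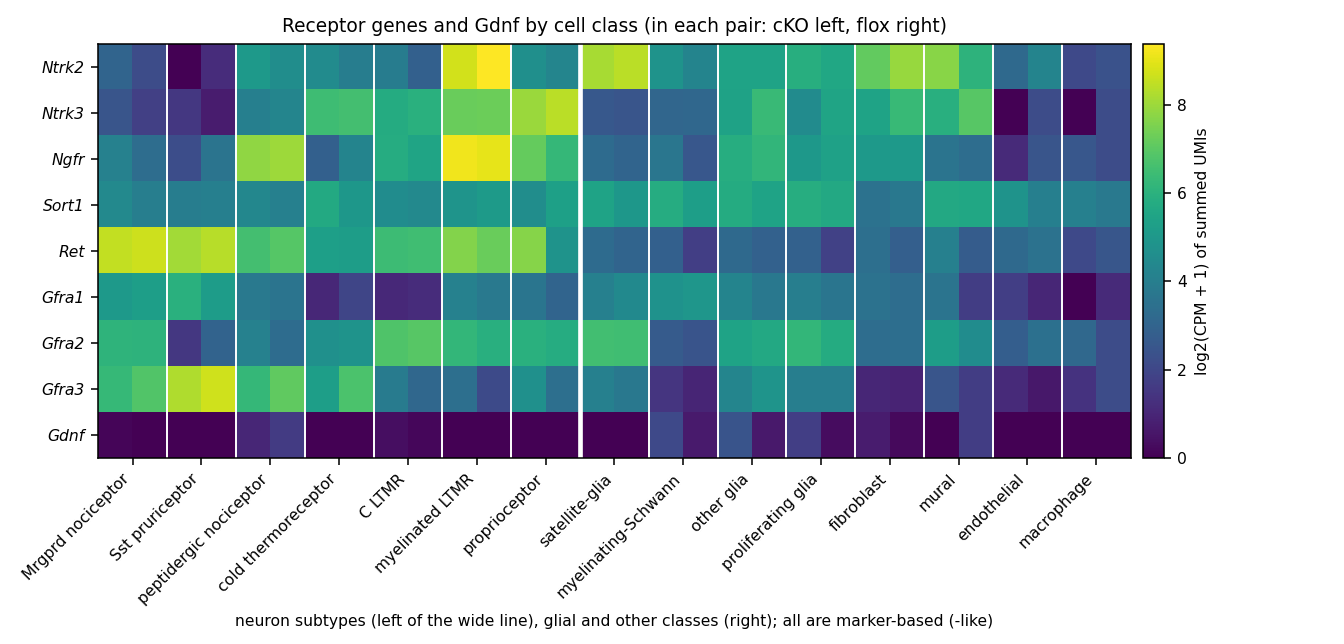
Level of each of the 9 genes as log2(CPM + 1) of summed UMIs (colour) in 7 neuron subtypes and 8 glial and other classes (columns), with cKO left and flox right in each pair. Ret stands out in Mrgprd nociceptor and pruriceptor columns, and Gfra3 in nociceptor and pruriceptor columns and in flox cold thermoreceptors. Ntrk2 and Ngfr stand out in myelinated low-threshold mechanoreceptors, Ntrk3 in proprioceptors, and Ntrk2 again in satellite glia, fibroblasts and mural cells.

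Over all neuron-like cells, 8 of the 9 members were measured and 1 was lower in cKO by the size rule, Gfra3, where 4.37% of 14904 measured genes were lower. None of the 8 was higher, where 8.53% of genes were. Gfra3, the co-receptor for artemin, was at 61.3 CPM in cKO and 92.9 CPM in flox, a log2 ratio of -0.60 (interval -0.66 to -0.54). With every subtype and the unnamed cells weighted by the mean shares of both libraries, the ratio was -0.30 and no longer passed the rule. The other receptors lay closer together: the median log2 ratio of the 8 was -0.19, against -0.02 over all measured genes.

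The other RET pathway members did not reach the size rule in neurons. Ret, the signalling kinase, was at 244.5 CPM in cKO and 284.6 CPM in flox (log2 ratio -0.22, interval -0.25 to -0.19). Gfra1, the co-receptor for GDNF, was at 24.5 CPM in cKO and 30.2 CPM in flox (-0.30, interval -0.40 to -0.20). Gfra2, the co-receptor for neurturin, was at 56.3 CPM in cKO and 63.1 CPM in flox (-0.16, interval -0.23 to -0.09). All 4 genes of the RET system were lower in cKO neurons in sign, 3 of them by less than the size rule, but the signs of Ret (0.03) and Gfra2 (0.05) turned when each library was clustered alone. In the other direction, Ret (-0.51) and Gfra2 (-0.70) passed the rule with the mean of each cell's CPM, and Gfra1 (-0.77) with standardised subtype shares.

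Neurotrophin receptors were split in sign. Ntrk2, which encodes TrkB, the receptor for BDNF, was at 53.7 CPM in cKO and 50.2 CPM in flox (log2 ratio 0.10, interval 0.02 to 0.17). Ntrk3, which encodes TrkC, the receptor for neurotrophin-3, was at 58.3 CPM in cKO and 75.9 CPM in flox (-0.38, interval -0.45 to -0.31). That Ntrk3 ratio ranged from -1.43 with standardised subtype shares to 0.24 in neurons with a named subtype. Ngfr, which encodes p75, was at 145.4 CPM in cKO and 126.4 CPM in flox (0.20, interval 0.16 to 0.25), and the ratio was -0.44 with standardised subtype shares. Sort1, which encodes sortilin, a sorting receptor that binds proneurotrophins together with p75, was at 20.8 CPM in cKO and 18.8 CPM in flox (0.15, interval 0.03 to 0.27). On GRCm38, in the GENCODE vM21 annotation, Ntrk2 (ENSMUSG00000055254) spans chr13:58806569-59133970, Ntrk3 (ENSMUSG00000059146) chr7:78175959-78738012, Ngfr (ENSMUSG00000000120) chr11:95568818-95587735 and Ret (ENSMUSG00000030110) chr6:118151745-118197718. The annotated 3′ ends of the coding transcripts lie up to 255 kb apart for Ntrk2 and 402 kb apart for Ntrk3, and 219 kb apart for Gfra1, so these gene-level counts add full-length and truncated forms, which were not separated.

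Summed neuron markers were at 18846 CPM in cKO neurons and 22365 CPM in flox neurons, with all 11 markers detected in both libraries. Fabp7, a satellite glia gene, was at 309 CPM in cKO neurons against 172 CPM in flox neurons. The part of these values in the receptor ratios was not tested.

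**Figure D2:**
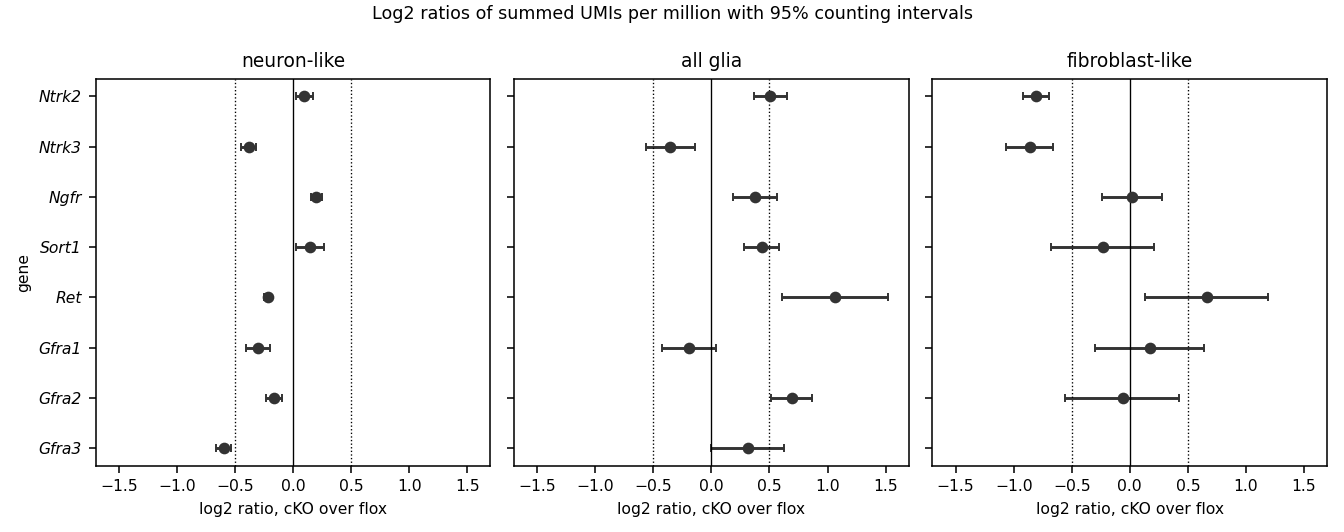
Log2 ratio, cKO over flox, of CPM for 8 receptor genes in neuron-like cells, all glia and fibroblast-like cells, with 95% counting intervals as bars and the size rule of 0.5 as dotted lines. Gfra3 is the 1 gene left of the lower line in neurons, Ntrk2, Ret and Gfra2 lie right of the upper line in glia, and Ntrk2 and Ntrk3 lie left of the lower line in fibroblasts.

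Across neuron subtypes Gfra3 was lower in cKO wherever it was abundant. In Mrgprd nociceptor-like cells, the non-peptidergic nociceptors that innervate skin, Gfra3 was at 76.2 CPM in cKO and 113.6 CPM in flox (log2 ratio -0.58, interval -0.66 to -0.49). Among peptidergic nociceptor-like cells, which release substance P and CGRP, it was at 75.9 CPM in cKO and 136.7 CPM in flox (-0.85, interval -1.02 to -0.68). Of the 8 members measured in them, 1 was lower and 1 higher, where 7.57% of 11400 genes were lower and 5.58% higher. Cold thermoreceptor-like cells, marked by the menthol channel gene Trpm8, had 36.9 CPM in cKO and 105.5 CPM in flox (-1.52, interval -2.09 to -0.98), on 58 cKO cells and 45 flox cells. There 1 of 5 measured members was higher and 1 lower, where 6.85% of 6200 measured genes were higher and 10.3% lower. Trpm8 itself was at 204 CPM in cKO and 150 CPM in flox in the same cells.

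The highest Gfra3 level of all was in somatostatin pruriceptor-like cells, which signal itch, at 307.9 CPM in cKO and 413.0 CPM in flox (-0.42, interval -0.68 to -0.18), short of the size rule. Of the 3 members measured in them 1 was higher, Gfra1, and 0 were lower, where 7.71% of 5796 genes were higher and 14.1% lower. Of 12 named sub-clusters with at least 20 cells of each library, 7 had 50 CPM or more of Gfra3 in flox. The cut was made on the flox level, which itself favours lower values in cKO, so nothing is concluded from the counts. Sub-cluster 16, the cold thermoreceptor-like group, passed it through flox only, with 36.9 CPM in cKO and 105.5 CPM in flox. All 7 sub-clusters were lower in cKO in sign, and 6 had an interval wholly below 0. The exception was sub-cluster 1, the main flox group of Mrgprd neurons, with 87.0 CPM in 39 cKO cells and 97.4 CPM in 353 flox cells. Sub-cluster 4, the matching group mostly of cKO cells, had 68.5 CPM in 246 cKO cells and 145.4 CPM in 35 flox cells. Mrgprd, the receptor gene that names the subtype, was at 164 CPM in cKO and 169 CPM in flox.

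In the subtypes where Gfra3 was scarce, the ratio of the whole class had the other sign. In C low-threshold mechanoreceptor-like cells, unmyelinated touch neurons, Gfra3 was at 14.1 CPM in cKO and 7.68 CPM in flox (log2 ratio 0.87, interval 0.32 to 1.42). The sign turned with coarser clusters (-0.31) and with each library clustered alone (-1.05). It also differed between sub-clusters. Sub-cluster 5 had 2.93 CPM in 68 cKO cells and 5.40 CPM in 145 flox cells, under 50 UMIs. Sub-cluster 14 had 28.5 CPM in 64 cKO cells and 15.1 CPM in 47 flox cells. Of 7 members measured in the whole class, 2 were higher, Ntrk2 and Gfra3, and 0 lower, where 7.73% of 10414 genes were higher and 8.49% lower. Myelinated low-threshold mechanoreceptor-like cells had 9.86 CPM in cKO and 3.27 CPM in flox, and proprioceptor-like cells had 24.9 CPM in cKO and 9.64 CPM in flox. Sub-clusters 15 and 23 of the myelinated class and 18 of the proprioceptors were each under 50 Gfra3 UMIs. Sub-cluster 30 of the former held 17 cKO cells and 1 flox cell, and sub-cluster 27 of the latter 25 cKO cells and 1 flox cell. For scale, macrophage-like cells, which should lack the gene, had 1.60 CPM in cKO and 3.56 CPM in flox. The range between the highest and lowest subtype was therefore narrower in cKO, but the lowest flox level, 3.27 CPM, was near the macrophage-like background. The part that the lower depth of cKO neurons had in this was not tested.

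Gfra3 was also seen per cell. After each neuron-like cell was thinned to 5000 UMIs, which left out 904 cKO cells and 155 flox cells, 24.9% of 1874 cKO cells (interval 23% to 27%) and 31.7% of 1358 flox cells (29.3% to 34.3%) had a Gfra3 UMI. Without thinning the shares were 41.5% in cKO and 64.0% in flox. In macrophage-like cells thinned to the same 5000 UMIs the share was 0% of 41 cKO cells, with an interval reaching 8.60%, and 1.20% of 153 flox cells.

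**Figure D3:**
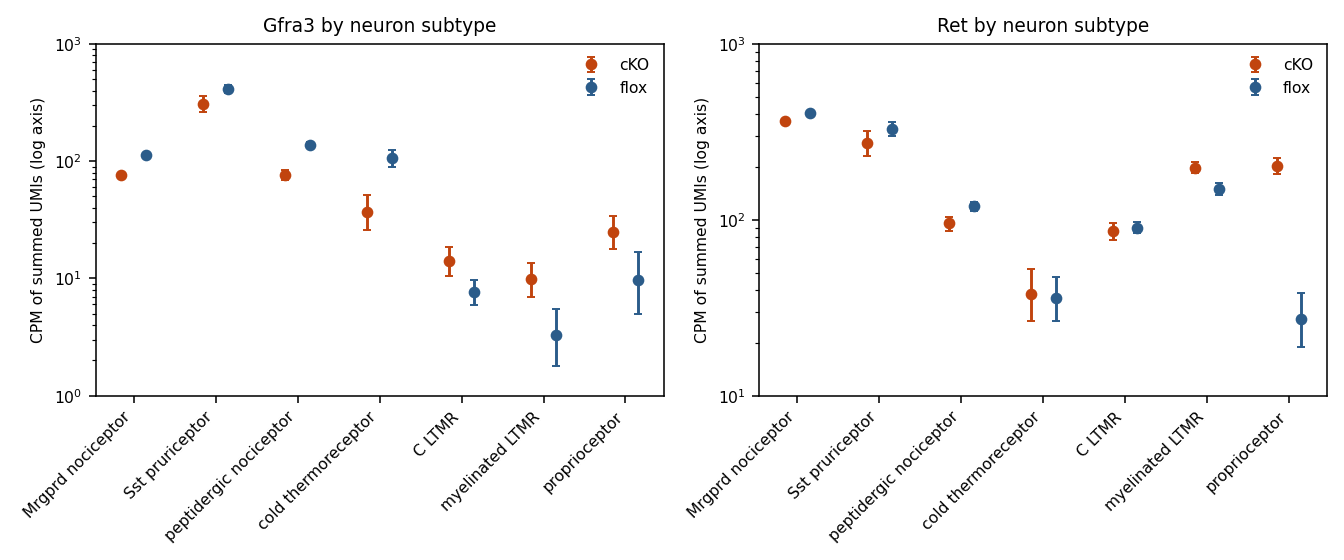
CPM of summed UMIs (log axis) of Gfra3 and Ret in 7 neuron subtypes, cKO left and flox right in each, with 95% Poisson intervals as bars. Gfra3 is lower in cKO in the 4 subtypes where it is abundant and higher in the 3 where it is scarce, and Ret differs most in proprioceptor-like cells, at 202 CPM in cKO and 27.3 CPM in flox.

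Ret kept its order across subtypes in both libraries, apart from the proprioceptors. It was highest in Mrgprd nociceptor-like cells, at 362 CPM in cKO and 407 CPM in flox, followed by somatostatin pruriceptor-like cells at 273 CPM in cKO and 329 CPM in flox. The intervals of Mrgprd cells and pruriceptors did not overlap within either library. Myelinated low-threshold mechanoreceptor-like cells, some of which are known as early RET neurons, had 198 CPM in cKO and 150 CPM in flox (log2 ratio 0.40, interval 0.25 to 0.56).

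Peptidergic nociceptor-like cells had 95.3 CPM of Ret in cKO and 119.5 CPM in flox, C low-threshold mechanoreceptor-like cells 86.1 CPM in cKO and 90.3 CPM in flox, and cold thermoreceptor-like cells 37.9 CPM in cKO and 35.9 CPM in flox. In cKO, the intervals of the peptidergic and C low-threshold cells overlapped. Every one of the 7 subtypes was above the Ret level of macrophage-like cells, 3.21 CPM in cKO and 4.74 CPM in flox.

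Proprioceptor-like cells, which report muscle stretch, had 202 CPM of Ret in 90 cKO cells and 27.3 CPM in 37 flox cells, a log2 ratio of 2.89 (interval 2.38 to 3.44). Members measured in this class numbered 7, of which 3 were higher (Ret, Ngfr and Gfra3) and 1 was lower (Sort1), where 12.2% of 7158 measured genes were higher and 15.3% lower. The makeup of the class differed: sub-cluster 27, with 25 cKO cells and 1 flox cell, had 346 CPM of Ret in cKO. In sub-cluster 18 alone, with 65 cKO cells and 36 flox cells, Ret was at 110 CPM in cKO and 20.4 CPM in flox (2.43, interval 1.79 to 3.12). Pvalb, the parvalbumin gene that marks proprioceptors, was at 1420 CPM in cKO and 4307 CPM in flox across the class, Runx3 at 75.9 CPM in cKO and 155 CPM in flox, and Mrgprd, which proprioceptors should lack, at 51.6 CPM in cKO and 3.21 CPM in flox. Their part in the Ret difference was not tested.

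Levels of the GFRα co-receptors differed between neuron subtypes. Gfra2 was highest in C low-threshold mechanoreceptor-like cells, at 109 CPM in cKO and 122.5 CPM in flox, followed by myelinated low-threshold mechanoreceptor-like cells, with 72.5 CPM in cKO and 59.4 CPM in flox, Mrgprd nociceptor-like cells, with 66.9 CPM in cKO and 66.8 CPM in flox (log2 ratio 0.00, interval -0.09 to 0.10), and proprioceptor-like cells, with 60.7 CPM in cKO and 55.4 CPM in flox. These 3 subtypes had overlapping intervals in cKO, and their order differed between the libraries. Among peptidergic nociceptor-like cells Gfra2 was scarce, at 16.6 CPM in cKO and 9.01 CPM in flox (0.88, interval 0.43 to 1.34). That ratio ranged from 0.36 to 1.66 over the alternative processing choices. The makeup of the class differed, with 22 cKO cells in sub-cluster 28 and 21 in sub-cluster 29, against 0 flox cells in each. Macrophage-like cells had 8.02 CPM of Gfra2 in cKO and 3.56 CPM in flox.

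Gfra1 was high in sub-cluster 6, a group within the Mrgprd nociceptor-like cells led by the itch receptor gene Mrgpra3, with 137 CPM in 80 cKO cells and 132 CPM in 115 flox cells. An unnamed group, sub-cluster 10, had 85.3 CPM in 52 cKO cells and 83.6 CPM in 77 flox cells. The whole Mrgprd class had 31.7 CPM in cKO and 37.5 CPM in flox. Somatostatin pruriceptor-like cells had 61.2 CPM in cKO and 35.8 CPM in flox, on 22 cKO cells and 43 flox cells (0.77, interval 0.11 to 1.42). C low-threshold mechanoreceptor-like cells had 1.10 CPM of Gfra1 in cKO and 1.26 CPM in flox.

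Gdnf, the ligand, was sparse, with 55 UMIs in all cKO cells and 41 in all flox cells. Neuron-like cells had 14 UMIs in cKO and 22 in flox, of which peptidergic nociceptor-like cells held 5 in cKO and 20 in flox. All glia together had 34 UMIs in cKO and 13 in flox, or 3.17 CPM in cKO and 0.514 CPM in flox (log2 ratio 2.62, interval 1.66 to 3.67). This lay under the minimum of 50 UMIs, so Gdnf was not counted as measured. Other glia, the non-myelinating glia outside the satellite class, had 17 Gdnf UMIs in cKO and 3 in flox, and no Gdnf UMI was found in satellite-glia-like cells of either library.

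Trk receptors marked the touch and position neurons. Ntrk2 was highest in myelinated low-threshold mechanoreceptor-like cells, the fast touch neurons, at 429 CPM in cKO and 666 CPM in flox (log2 ratio -0.64, interval -0.73 to -0.55). Of 8 members measured there, 1 was higher (Gfra3) and 1 lower (Ntrk2), where 4.85% of 9985 measured genes were higher and 6.46% lower. Within the class, sub-cluster 15 had 352 CPM in cKO and 514 CPM in flox, and sub-cluster 23 had 767 CPM in cKO and 888 CPM in flox. The remaining sub-cluster held 17 cKO cells and 1 flox cell. After thinning, 68.3% of 116 cKO cells and 85.8% of 66 flox cells had an Ntrk2 UMI.

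Ntrk2 was scarce in 2 unmyelinated subtypes and higher in cKO there. Mrgprd nociceptor-like cells had 7.16 CPM in cKO and 3.50 CPM in flox (1.03, interval 0.68 to 1.39), beside 250 CPM of Fabp7 in cKO and 130 CPM in flox and 530 CPM of Apoe in cKO and 254 CPM in flox, both satellite glia genes. This ratio turned to -0.55 with coarser clusters and to -2.59 with each library clustered alone. Macrophage-like cells, which should lack the gene, had 3.21 CPM of Ntrk2 in cKO and 4.15 CPM in flox, so the flox Mrgprd level is near background. C low-threshold mechanoreceptor-like cells had 14.4 CPM of Ntrk2 in cKO and 6.42 CPM in flox (1.16, interval 0.59 to 1.73), beside 321 CPM of Fabp7 in cKO and 155 CPM in flox. Neither of its sub-clusters passed the size rule: sub-cluster 5 had 0 Ntrk2 UMIs in 68 cKO cells and 7 in 145 flox cells, and sub-cluster 14 had 33.0 CPM in 64 cKO cells and 23.8 CPM in 47 flox cells (0.47, interval -0.12 to 1.06). Whether RNA of satellite glia, the neighbouring class rich in Ntrk2, added to these values was not tested.

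Ntrk3 was highest in an unnamed group, sub-cluster 10, led by Hopx, with 560 CPM in 52 cKO cells and 549 CPM in 77 flox cells. The same group had 626 CPM of Ngfr in cKO and 527 CPM in flox, and 271 CPM of Ret in cKO and 218 CPM in flox. Proprioceptor-like cells had 251 CPM of Ntrk3 in cKO and 338 CPM in flox (log2 ratio -0.43, interval -0.63 to -0.23). In sub-cluster 18 alone it was 331 CPM in cKO and 343 CPM in flox (-0.05, interval -0.27 to 0.16).

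Myelinated low-threshold mechanoreceptor-like cells had 152 CPM of Ntrk3 in cKO and 156 CPM in flox, cold thermoreceptor-like cells 88.5 CPM in cKO and 95.2 CPM in flox, and C low-threshold mechanoreceptor-like cells 54.1 CPM in cKO and 61.2 CPM in flox. In each of these 3 subtypes the interval of the ratio held 0. Nociceptors were low in Ntrk3, and Mrgprd nociceptor-like cells had 4.62 CPM in cKO and 2.43 CPM in flox. Macrophage-like cells, which should lack the gene, had 0 Ntrk3 UMIs in cKO and 3.56 CPM in flox, so the Mrgprd level is near background.

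Ngfr, which helps Trk receptors bind their ligands, was highest, among named subtypes, in myelinated low-threshold mechanoreceptor-like cells, at 583 CPM in cKO and 524 CPM in flox, and then in peptidergic nociceptor-like cells, at 224 CPM in cKO and 255 CPM in flox. Proprioceptor-like cells had 144 CPM in cKO and 74.7 CPM in flox (log2 ratio 0.95, interval 0.59 to 1.31). Mrgprd nociceptor-like cells had 16.4 CPM in cKO and 9.13 CPM in flox (0.85, interval 0.62 to 1.07), a ratio that was -0.051 with each library clustered alone. Of the 8 members measured in Mrgprd cells, 3 were higher (Ntrk2, Ntrk3 and Ngfr) and 1 lower (Gfra3), where 10.1% of 12914 measured genes were higher and 6.26% lower.

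Sort1 showed little subtype order, between 14.8 CPM and 50.5 CPM over the 7 subtypes in cKO and between 15.1 CPM and 39.4 CPM in flox. Cold thermoreceptor-like cells had 50.5 CPM in cKO and 30.03 CPM in flox (log2 ratio 0.75, interval 0.12 to 1.39), on 48 UMIs in cKO and 41 in flox. Proprioceptor-like cells had 23.1 CPM in cKO and 39.4 CPM in flox (-0.77, interval -1.42 to -0.13), on 38 UMIs in cKO and 49 in flox.

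Receptors met in the same neurons in some pairs more than in others. Observed counts of cells with both genes were set beside the number expected from the product of the shares, after thinning to 5000 UMIs and averaged over all possible draws. Ngfr and Ntrk2 were found together in 9.32% of cKO neurons and 5.42% of flox neurons, 1.73 times the expected number in cKO and 2.60 times in flox. For Ngfr with Ntrk3 the ratios were 1.52 in cKO and 1.99 in flox.

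Ret was found with Gfra3 in 16.1% of cKO neurons and 23.9% of flox neurons, 1.14 times the expected number in cKO and 1.20 times in flox. Ret met Trk and p75 receptors less than expected: the ratio was 0.79 in cKO and 0.70 in flox with Ntrk2, 0.76 in cKO and 0.63 in flox with Ntrk3, and 0.78 in cKO and 0.71 in flox with Ngfr. Sort1 and Ngfr, the partners in binding proneurotrophins, met close to expectation, at 0.98 in cKO and 1.13 in flox. Cells of 1 library share its depth and free RNA, and without thinning the ratio of Ntrk2 with Ret was 1.07 in cKO and 0.98 in flox. For Ntrk3 with Ret it was then 1.12 in cKO and 0.95 in flox, and for Ngfr with Ret 0.99 in cKO and 0.99 in flox.

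**Figure D4:**
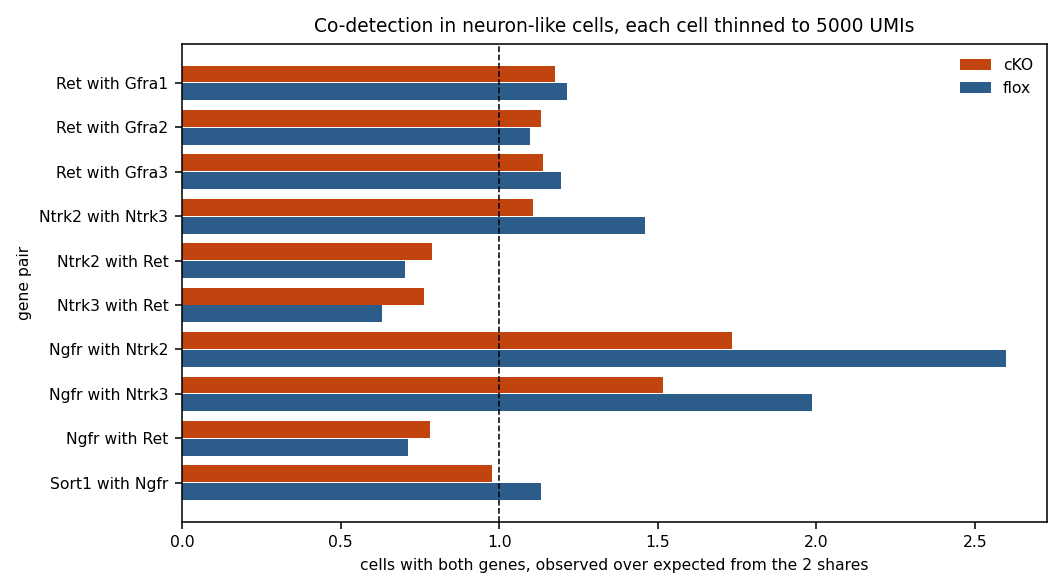
Number of neuron-like cells with both genes of a pair, divided by the number expected from the 2 shares, for 10 pairs, after thinning each cell to 5000 UMIs (1874 cKO cells, upper bars, and 1358 flox cells, lower bars). The dashed line marks 1. Ngfr with Ntrk2 reaches 1.73 in cKO and 2.60 in flox, and the 3 pairs of Ret with Ntrk2, Ntrk3 and Ngfr lie below 1 in both libraries.

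Of the neurons with a Ret UMI after thinning, 47.5% in cKO (interval 44.5% to 50.6%) and 34.9% in flox (31.7% to 38.2%) had no UMI of Gfra1, Gfra2 or Gfra3. Within Mrgprd nociceptor-like cells the pairs were close to independent, with Ret and Gfra3 together at 1.01 times the expected number in cKO and 0.99 times in flox. In the same class 30.7% of Ret-positive cells had a Gfra3 UMI in cKO and 40.2% in flox. Myelinated low-threshold mechanoreceptor-like cells had Ngfr and Ntrk2 together in 62.0% of cKO cells and 76.2% of flox cells, 1.02 times the expected number in both libraries. In Mrgprd nociceptor-like cells the same pair met in 0.956% of cKO cells and 0.274% of flox cells, 2.39 times the expected number in cKO and 2.81 times in flox.

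Glia held Ntrk2, Gfra2 and Sort1, and Sort1 was nearly even over the glial classes, between 42.3 CPM and 56.8 CPM in cKO and between 30.6 CPM and 50.2 CPM in flox. Over all glia, 8 members were measured, 3 of them (Ntrk2, Ret and Gfra2) higher in cKO and 0 lower, where 13.9% of 12320 measured genes were higher and 14.7% lower. Ntrk2 was at 59.9 CPM in cKO and 42.1 CPM in flox (log2 ratio 0.51, interval 0.36 to 0.65), and it passed the size rule by so little that TMM scaling, at 0.46, and DESeq2 scaling, at 0.45, put it below. Gfra2 was at 41.8 CPM in cKO and 25.9 CPM in flox (0.69, interval 0.51 to 0.87), but it passed the size rule in none of the 4 glial classes, at 0.33 in myelinating-Schwann-like cells, -0.23 in other glia, 0.47 in proliferating glia and 0.02 in satellite-glia-like cells. Ret was at 7.27 CPM in cKO and 3.48 CPM in flox (1.06, interval 0.60 to 1.52). After thinning to 2000 UMIs a Ret UMI was found in 1.38% of cKO glia and 0.851% of flox glia, against 0.896% of cKO and 1.03% of flox macrophage-like cells and 2.0% of cKO and 2.82% of flox endothelial-like cells. At these shares neither expression nor a difference in Ret is read from glia, the myelinating class included, although Ret is among the members counted as higher.

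The glial classes differed in makeup between the libraries. Myelinating-Schwann-like cells numbered 729 in cKO and 1800 in flox, and other glia 1433 in cKO and 1170 in flox, with the cells of each library mostly in clusters of their own. Summed myelin markers were at 18012 CPM in cKO glia and 66543 CPM in flox glia, lower in cKO for 10 of 10 markers, and summed neuron markers at 578 CPM in cKO and 448 CPM in flox. Their part in the glial ratios was not tested.

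Satellite-glia-like cells, which wrap the neuron cell bodies, were the glia richest in Ntrk2 and Gfra2, and here the libraries differed little. Ntrk2 was at 286 CPM in 215 cKO cells and 337 CPM in 231 flox cells (-0.24, interval -0.48 to 0.00), and Gfra2 at 92.0 CPM in cKO and 90.9 CPM in flox (0.02, interval -0.43 to 0.46). An Ntrk2 UMI was found in 43.1% of cKO cells and 46.4% of flox cells after thinning to 2000 UMIs, against 0.331% of cKO and 0.998% of flox macrophage-like cells. None of the 3 members measured in this class passed the size rule, where 7.05% of 5389 genes were higher and 17.4% lower. In these cells Ptges3 was at 174 CPM in cKO and 191 CPM in flox (-0.13, interval -0.45 to 0.18).

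Ntrk3 was lower in cKO in other glia and in proliferating glia. Other glia had 41.7 CPM in cKO and 81.9 CPM in flox (log2 ratio -0.97, interval -1.24 to -0.71), and proliferating glia had 22.3 CPM in cKO and 44.0 CPM in flox (-0.98, interval -1.44 to -0.55). Gfra3 in other glia was at 18.4 CPM in cKO and 28.1 CPM in flox (-0.61, interval -1.04 to -0.20). Those were 2 of 8 members measured in other glia, where 18.9% of 9891 genes were lower, and 0 were higher, where 9.25% of genes were. In proliferating glia 1 of 7 was lower and 0 higher, where 15.2% of 9028 genes were lower and 7.42% higher. Most other glia of cKO lay in cluster 0, led by Tnfrsf12a, with 1391 cKO cells and 72 flox cells, and most of flox in cluster 1, with 42 cKO cells and 1098 flox cells, so library and cluster cannot be told apart.

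Myelinating-Schwann-like cells had low Trk levels. Of 7 members measured, 4 were higher (Ntrk2, Ngfr, Sort1 and Ret) and 0 lower, where 14.0% of 10540 genes were higher and 15.8% lower. Sort1 was at 54.7 CPM in cKO and 36.9 CPM in flox (0.57, interval 0.32 to 0.81), Ntrk2 at 27.5 CPM in cKO and 18.01 CPM in flox (0.61, interval 0.26 to 0.95) and Ngfr at 11.9 CPM in cKO and 4.79 CPM in flox (1.31, interval 0.72 to 1.88). Macrophage-like cells had 4.81 CPM of Ngfr in cKO, on 3 UMIs, and 3.56 CPM in flox. The flox Ngfr level of the myelinating class is thus near that of macrophage-like cells. Gfra1 was at 26.4 CPM in cKO and 29.5 CPM in flox (-0.16, interval -0.50 to 0.17). Summed myelin markers here were at 47583 CPM in cKO and 110221 CPM in flox, lower in cKO for 9 of 10 markers.

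Ntrk2 and Ntrk3 were also found in stromal and vessel cells. In fibroblast-like cells Ntrk2 was at 139.8 CPM in cKO and 244.5 CPM in flox (log2 ratio -0.81, interval -0.92 to -0.69). That difference rested on cluster 17, led by Wnt4, with 3 cKO cells and 337 flox cells and 461 CPM of Ntrk2 in flox. With the clusters holding at least 20 cells of each library, an alternative chosen after seeing the data, the ratio was 0.10. Among those clusters the sign varied: cluster 5, led by Ccl11, had 227 CPM in cKO and 160 CPM in flox, and cluster 13, led by Ecrg4, had 86.5 CPM in cKO and 184 CPM in flox.

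Ntrk3 in fibroblast-like cells was at 43.0 CPM in cKO and 78.2 CPM in flox (-0.86, interval -1.07 to -0.66), and -0.51 in the clusters both libraries shared. Fibroblast-like cells had 7 members measured, with 2 lower (Ntrk2 and Ntrk3) and 1 higher (Ret, at 9.72 CPM in cKO and 6.14 CPM in flox, found after thinning in 1.65% of cKO cells and 1.47% of flox cells, again no more than in endothelial-like cells), where 18.5% of 11631 genes were lower and 8.43% higher. Their Ngfr level was 32.8 CPM in cKO and 32.3 CPM in flox (0.02, interval -0.24 to 0.27).

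Mural-like cells, the smooth muscle cells and pericytes of vessels, had 208 CPM of Ntrk2 in 166 cKO cells and 66.3 CPM in 121 flox cells (log2 ratio 1.65, interval 1.16 to 2.15). Ntrk3 went the other way, with 58.9 CPM in cKO and 122 CPM in flox (-1.05, interval -1.73 to -0.42). They were 2 of 3 members measured, where 16.5% of 3982 genes were higher and 26.7% lower. The smooth muscle genes Acta2, at 4447 CPM in cKO and 14419 CPM in flox, and Tagln, at 3299 CPM in cKO and 9127 CPM in flox, were lower in cKO, and Abcc9, a pericyte gene, was at 399 CPM in cKO and 86.8 CPM in flox. Their part in the Ntrk2 and Ntrk3 ratios was not tested. In endothelial-like cells 1 member was measured, Sort1, at 27.3 CPM in cKO and 15.8 CPM in flox (0.79, interval -0.05 to 1.62), where 18.7% of 6672 genes were higher and 25.4% lower.

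The astrocyte-like cells of the flox library, a central nervous system class, had 276 CPM of Ntrk2 and 66.9 CPM of Ntrk3, and its oligodendrocyte-like cells 47.1 CPM of Sort1. There were 0 such cells in cKO to set beside them.

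**Figure D5:**
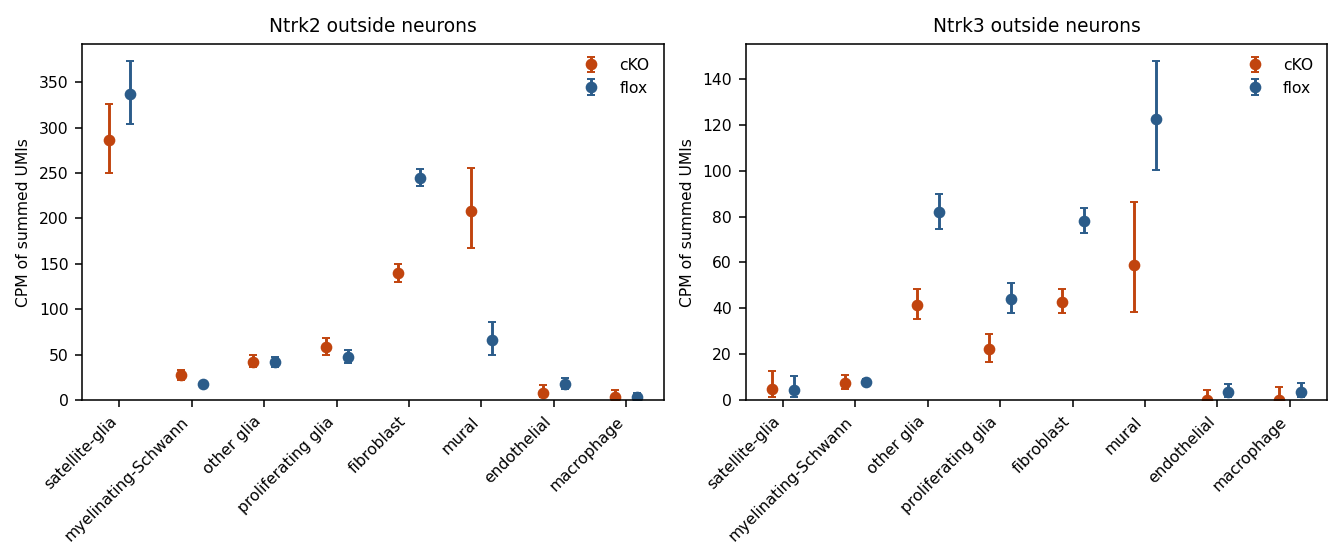
CPM of summed UMIs of Ntrk2 and Ntrk3 in 8 classes outside neurons, cKO left and flox right in each, with 95% Poisson intervals as bars. Ntrk2 is highest in satellite glia in both libraries and its intervals lie apart in fibroblast and mural cells, and Ntrk3 is lower in cKO in other glia, proliferating glia, fibroblast and mural cells.

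Other genes of the pathway, 55 by list, were counted in neurons and in glia. In neuron-like cells 51 were measured, with 3 higher and 1 lower, a median log2 ratio of -0.01 against -0.02 over all genes, where 8.53% of genes were higher and 4.37% lower. The highest were Sorcs2, a sortilin relative at 2.73 CPM in cKO and 1.31 CPM in flox (log2 ratio 1.06), the adaptor gene Shc3 (0.65) and Irs1, the insulin receptor substrate (0.50). The lowest were Gfra4, the co-receptor for persephin, at 33.7 CPM in cKO and 49.0 CPM in flox (-0.54), then Dok1 (-0.44) and Pik3r1 (-0.44), which encode a docking protein and the regulatory subunit of PI3 kinase.

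In all glia 46 were measured, with 17 higher and 3 lower and a median of 0.29 against 0.01 over all genes, where 13.9% of genes were higher and 14.7% lower. Adaptors and effectors had 9 of 29 higher and 2 lower, p75 partners 3 of 8 higher and the sortilin family 2 of 3 higher. Within the glial classes fewer passed: 9 of 36 were higher and 3 lower in myelinating-Schwann-like cells, 6 of 36 higher and 2 lower in other glia, 5 of 33 higher and 1 lower in proliferating glia, and 3 of 19 higher and 2 lower in satellite-glia-like cells. The median log2 ratio was 0.20 in the myelinating class, 0.07 in other glia, 0.04 in proliferating glia and -0.05 in satellite-glia-like cells. The highest over all glia were Bex1, a p75-binding protein, at 57.4 CPM in cKO and 22.9 CPM in flox (1.32), Bdnf (1.24) and Cblb, a ubiquitin ligase (1.15). The lowest were Dok1 (-1.23), Shc4, at 30.2 CPM in cKO and 62.0 CPM in flox (-1.04), and Gfra4 (-0.85).

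Ligand genes were found in neurons, glia, fibroblasts and mural cells. Bdnf, the ligand of TrkB, was at 76.8 CPM in cKO neurons and 56.8 CPM in flox neurons (0.43, interval 0.37 to 0.50), and Ntf3, the neurotrophin-3 gene, at 14.7 CPM in cKO neurons and 12.0 CPM in flox neurons. In mural-like cells Bdnf was at 70.2 CPM in cKO and 111 CPM in flox. In fibroblast-like cells Nrtn, the neurturin gene, was at 24.5 CPM in cKO and 15.9 CPM in flox, and Bdnf was at 10.0 CPM in cKO and 4.95 CPM in flox. Glial Nrtn was at 4.85 CPM in cKO and 2.61 CPM in flox. In neurons Nrtn was at 0.946 CPM in cKO and 0.749 CPM in flox.

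Genes with the pattern most like each receptor were taken over the 15 classes and subtypes with at least 30 cells in each library, by Pearson correlation of log2(CPM + 10), averaged over the libraries. Ret was matched most closely, by Ptpn5 and Entpd3 (both 0.97) and Fam124a (0.97). Ngfr was followed by Caln1 (0.89), Lrrn2 (0.87) and Fam78b (0.87), and Gfra3 by Klc3 (0.89), Dyrk3 (0.89) and Serpina3n (0.86). Gfra2 came nearest Apmap (0.85), Tbc1d19 and Chchd3, Ntrk2 nearest Hoxb8 (0.83) and Fgfr1, and Gfra1 nearest Mical1 (0.80), Ephb6 and Ston2. Ntrk3 had Ppm1e (0.79), Cox6c and Slc4a3, Sort1 had Zdbf2 (0.80) and Mcam, and Gdnf, at its few UMIs, had C1qtnf12 (0.61), Npb and Ldlrad3. The points share the libraries and their depths.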

How the data were processed

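Single-cell 3′ RNA was measured in 1 cKO and 1 flox library of dorsal root ganglia. The deposited matrices hold raw UMI counts per gene and cell, made with cellranger 6.1.2 per the file headers, whereas the submitters' processing notes list Cell Ranger 5.0.1, Scanpy and mm10. Whether intronic reads were counted is not stated in those sources. The libraries held 9703 cKO barcodes with 78144437 UMIs and 10014 flox barcodes with 132620886 UMIs.

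Barcodes were dropped below 1000 UMIs, below 500 genes or above 15% mitochondrial counts. Scrublet's automatic threshold called 2 cKO and 0 flox doublets, so 569 cKO and 607 flox cells with the top scores were taken out instead, a rate of 0.8% for each 1000 cells. Cells were clustered on 2000 variable genes without the members and pathway genes (30 components, 15 neighbours, Leiden resolution 1.0, seed 0), and neurons again with 20 components. Clusters were named from marker lists, by thresholds set after the values were seen, and sub-clusters whose median depth, multiplied by 3, was below that of their library's neurons stayed unnamed. Members and lists were chosen with earlier results of these data known.

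UMIs were summed per class and library and scaled to CPM of the class total. Intervals, at 95%, were exact: Poisson for levels, Clopper-Pearson for percentages of cells, and conditional binomial for log2 ratios. Shares were computed as the mean over all draws after thinning to 5000 UMIs (neurons) or 2000 UMIs (other classes). Named genes were all 9 members, the 3 genes most like each in pattern (at least 200 UMIs in each library), the 3 highest and 3 lowest pathway genes in neurons and in glia, every ligand with at least 50 UMIs in a class, and Ptges3, except that 3 genes this rule names are not reported here. Genes that check what a class holds were chosen after the values were seen. TMM factors (edgeR 4.0.16) and size factors (DESeq2 1.42.0, R 4.3.3) were alternatives for scaling. The ratios and intervals were tested on simulated counts. Transcript ends were read from the GENCODE vM21 annotation (GRCm38). Scrublet ran in scanpy 1.11.5, and clustering used scikit-learn 1.9.0, leidenalg 0.10.2 and igraph 0.11.9. Statistics ran in scipy 1.17.1, under Python 3.11.15 with pandas 2.3.3 and numpy 2.4.6, and plots in matplotlib 3.10.9.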

Additional observations from a re-analysis of the deposited data

Results flagged for a closer look

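In 4 of the 9 genes the ratio passed the size rule in opposite directions in different classes, with intervals on either side of 0. Every value is a log2 ratio, cKO over flox, of 1 library each, and the differences between classes were not tested. The C low-threshold value of Ntrk2 was not past the rule in either of its sub-clusters. The Mrgprd value of Ntrk2 lies at 7.16 CPM in cKO and 3.50 CPM in flox, beside 4.15 CPM in flox macrophage-like cells. The Mrgprd value of Ntrk3 lies at 4.62 CPM in cKO and 2.43 CPM in flox, near the 3.56 CPM of flox macrophage-like cells.

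Ntrk2 was higher in cKO in mural-like (1.65), C low-threshold mechanoreceptor-like (1.16), Mrgprd nociceptor-like (1.03) and myelinating-Schwann-like cells (0.61), and lower in fibroblast-like (-0.81) and myelinated low-threshold mechanoreceptor-like cells (-0.64). Ntrk3 was higher in Mrgprd nociceptor-like cells (0.93) and lower in mural-like (-1.05), proliferating glia (-0.98), other glia (-0.97) and fibroblast-like cells (-0.86). Sort1 was higher in cold thermoreceptor-like (0.75) and myelinating-Schwann-like cells (0.57) and lower in proprioceptor-like cells (-0.77).

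Gfra3 was lower in cold thermoreceptor-like (-1.52), peptidergic nociceptor-like (-0.85), other glia (-0.61) and Mrgprd nociceptor-like cells (-0.58), and higher in myelinated low-threshold mechanoreceptor-like (1.59), proprioceptor-like (1.37) and C low-threshold mechanoreceptor-like cells (0.87).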

How the results depend on the processing

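Over 748 recomputed log2 ratios of members, 631 stayed within the counting interval of the reported value, 111 moved outside it and 6 reversed a called ratio. Those 6 were Ntrk2 in fibroblast-like cells, at 0.10 with clusters holding at least 20 cells of each library, Ntrk2 in Mrgprd nociceptor-like cells, at -0.55 with resolution 0.5 and -2.59 with each library clustered alone, Ngfr there, at -0.051 with each library clustered alone, and Gfra3 in C low-threshold mechanoreceptor-like cells, at -0.31 with resolution 0.5 and -1.05 with each library clustered alone. The cause was not tested. Clustering each library alone gave 60 of 69 values, with none for the cold and somatostatin subtypes or for Ntrk2 in C low-threshold mechanoreceptor-like cells, and resolution 0.5 gave 66, with none for the somatostatin subtype. Gfra3 in neuron-like cells ranged from -0.66 to -0.30.

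The count of members lower in neurons, 1 as reported, became 4 with the mean of each cell's CPM, 2 with standardised subtype shares and 0 at 1 log2. Members higher in glia, 3 as reported, became 1 with the mean of each cell's CPM and 1 at 1 log2, and members lower there, 0 as reported, became 1 with the mean of each cell's CPM. Pathway genes higher in neurons, 3 as reported, became 5 with no UMI minimum, 6 in neurons with a named subtype and 1 at 1 log2. Pathway genes lower in neurons, 1 as reported, became 11 with the mean of each cell's CPM, 4 standardised, 3 with each library clustered alone, 2 with a minimum of 20 UMIs, 2 with none, 2 with no doublet removal, 0 in neurons with a named subtype and 0 at 1 log2. In glia, 17 higher became 4 at 1 log2, and 3 lower became 5 with no minimum. Restricting to shared clusters and to named neurons was chosen after seeing the data.

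No paired analysis was possible because each genotype had 1 library and no test was made. Variation between animals is unmeasured, and genes under 50 UMIs over both libraries, such as Gdnf in each class, could not be compared.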
